A study of Homo sapiens with 17 samples.

Results

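The regions described here are places in the genome where thyroid hormone receptor beta (TRβ) was listed with the thyroid hormone T3 and not with vehicle, and where the chromatin remodeler subunit PBRM1 was likewise listed with T3 and not with vehicle. They were selected on the authors' TRβ and PBRM1 lists, that is on measured values, from the TRβ T3 list on chromosomes 1 to 22 and X as regions with no overlap to a TRβ vehicle region, an overlap of at least 1 bp with a PBRM1 T3 region and none with a PBRM1 vehicle region. This gave 2642 of the 7186 TRβ T3 regions (36.8%, exact 95% binomial interval 35.6 to 37.9), and 39.5% of the 6688 T3-only TRβ regions. The cells were Nthy-ORI, a human thyroid follicular line immortalised from normal tissue, and had been deprived of hormone in medium with charcoal-stripped serum. Cells then received T3 at 10 nM or vehicle (NaOH), for 6 hours per the label of each library, although the protocol text also names a longer exposure. Binding was mapped by CUT&RUN, in which an antibody directs a nuclease to cut out the DNA around a bound protein, with 500000 cells per reaction. Each antibody (TRβ, BRG1, ARID1A or PBRM1) and condition had 2 libraries and 1 deposited list, and coordinates are those of build hg38. Nothing in the labels ties the libraries to separate cultures, and read depth is unknown from the lists. "Gained" therefore means present in the T3 list and absent from the vehicle list, not a measured amount.

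TRβ is a nuclear receptor that binds DNA with and without hormone, often as a partner of a retinoid X receptor, at repeats of the half-site AGGTCA. Without hormone it is known to recruit corepressors, and with T3 it exchanges them for coactivators. BRG1 (SMARCA4) is an ATPase that moves nucleosomes in the SWI/SNF remodeling complexes. ARID1A marks the BAF form of the complex, while PBRM1, a protein with several bromodomains that read acetylated histones, marks the PBAF form. BRG1 alone thus does not tell which form of the complex a region holds.

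The sequences below are the 250 bases before an annotated gene start (RefSeq, GRCh38.p14, written 5′ to 3′ on the gene's strand) for 4 genes whose start lay inside a gained region of high TRβ signal value. FBXL12 encodes an F-box protein of a ubiquitin ligase, KLF13 a Krüppel-like transcription factor, SNAPC2 a subunit of the complex that activates small nuclear RNA genes, and DBP a circadian bZIP factor. SNAPC2 had a further start in the same region, whose window is not shown. Capitals mark the letters GGGCGG (GC box) or AGGTCA on either strand.
FBXL12 (chr19:9819080-9819329, minus strand): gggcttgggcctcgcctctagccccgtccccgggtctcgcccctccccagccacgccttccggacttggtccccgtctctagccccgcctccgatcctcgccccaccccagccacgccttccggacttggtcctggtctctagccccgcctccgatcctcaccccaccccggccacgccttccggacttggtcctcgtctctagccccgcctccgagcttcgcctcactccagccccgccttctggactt
KLF13 (chr15:31326585-31326834, plus strand): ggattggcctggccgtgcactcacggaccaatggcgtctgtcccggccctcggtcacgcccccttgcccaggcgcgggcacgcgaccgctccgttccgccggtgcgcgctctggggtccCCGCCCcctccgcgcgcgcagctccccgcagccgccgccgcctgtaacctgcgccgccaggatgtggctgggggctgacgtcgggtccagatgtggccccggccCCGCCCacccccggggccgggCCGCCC
SNAPC2 (chr19:7920088-7920337, plus strand): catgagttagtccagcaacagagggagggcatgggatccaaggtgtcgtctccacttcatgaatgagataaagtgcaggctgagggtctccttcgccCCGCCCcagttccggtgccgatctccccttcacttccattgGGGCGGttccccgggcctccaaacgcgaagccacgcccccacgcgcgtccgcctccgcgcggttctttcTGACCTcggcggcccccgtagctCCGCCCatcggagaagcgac
DBP (chr19:48637380-48637629, minus strand): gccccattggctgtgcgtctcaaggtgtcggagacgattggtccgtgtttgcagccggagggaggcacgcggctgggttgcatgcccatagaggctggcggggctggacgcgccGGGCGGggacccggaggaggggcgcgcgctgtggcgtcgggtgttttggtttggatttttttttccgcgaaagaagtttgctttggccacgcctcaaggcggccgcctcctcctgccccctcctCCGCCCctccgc
The FBXL12 window held no match, the KLF13 window 3 GC boxes, the SNAPC2 window 3 GC boxes and 1 AGGTCA, and the DBP window 2 GC boxes.

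In the lists as a whole, PBRM1 had 38132 regions with T3 and 9115 with vehicle, and TRβ had 7186 with T3 and 1405 with vehicle. BRG1 had 55931 with T3 and 64289 with vehicle, and ARID1A 41690 with T3 and 48976 with vehicle. A longer T3 list makes a gained region more likely, so membership depends on list length. As a check of the cell line, BRG1 regions lay within 1 kb of an end of 5 of 9 thyroid genes in both conditions (PAX8, FOXE1, HHEX, GLIS3 and TSHR), and of SLC5A5 with T3 only. No BRG1 region was listed at NKX2-1 or TG, nor at any of 3 lymphocyte genes, whereas 4 of 6 epithelial and 3 of 3 mesenchymal genes had one in both conditions. RNA was not measured.

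The members with the highest TRβ signal value lay mostly at gene ends. The signal value of a peak is the authors' own and is the sum of the values of the 2 libraries. It is used here only to rank and describe regions within 1 list, and was part of what put a region on the list. Inside PRR36 (chromosome 19, 7868383 to 7872429) the value was 42.7, made of 22.3 and 20.4 in the 2 libraries. Near ZNF846, a zinc finger gene (chromosome 19, 9791581 to 9793587), it was 41.3, made of 20.3 and 21. The KLF13 region (chromosome 15, 31326284 to 31327995) had 36.0, made of 24.4 and 11.6. The PRR36 and ZNF846 regions had nearly equal values in both libraries and the KLF13 region did not. The FBXL12 region (chromosome 19, 9818799 to 9819935) had 21.6 and 14.3 in the 2 libraries. The SNAPC2 region (chromosome 19, 7919950 to 7921720) had 17.2 and 18.2. The DBP region (chromosome 19, 48635843 to 48638340) had 14 and 16.1. DBP is also a gene of the T3-responsive list described further on, and the region covered its annotated start.

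The remaining regions of the first 15 lay inside PPP5C, TNFRSF12A, SPATA2L, MAZ, TMEM191C and DNAJC14, beside CASP9, which encodes an apoptosis-initiating caspase, near ALG1L2, and at 8387776 to 8391628 of chromosome 21, over 100 kb from any protein-coding gene. Their summed values ran from 28.2 (DNAJC14) to 32.3 (chromosome 21). The PPP5C region was 188 bp wide and had 4.62 and 27.6, so its rank rests on 1 library. Of these 15 regions, 14 overlapped BRG1 in both conditions, and all 15 overlapped ARID1A in both. The exception was the chromosome 21 region, which overlapped BRG1 in neither list. Genes of other kinds, such as those of ribosomal RNA, were not looked up there, and how uniquely reads map is unknown from the lists.

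**Figure D1:**
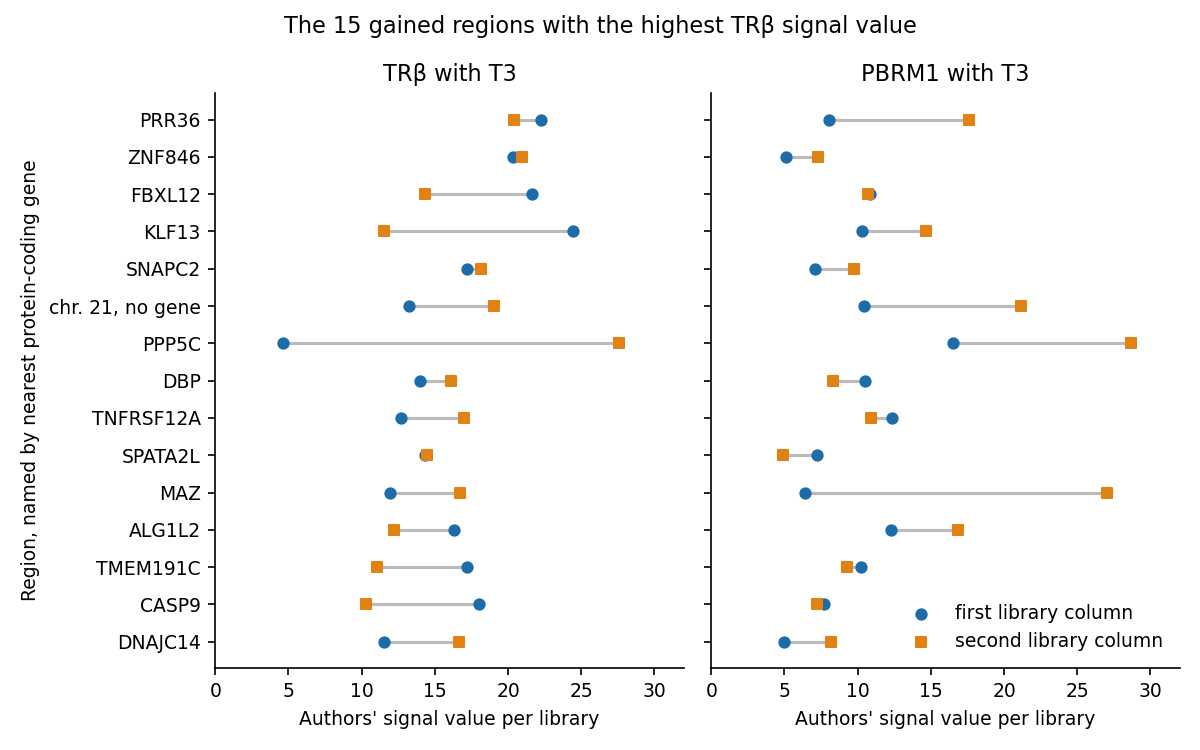
Authors' signal value per library (x axis, arbitrary units) of TRβ with T3 (left) and of the overlapping PBRM1 T3 region (right) for the 15 gained regions with the highest TRβ value. Circles and squares are the 2 library columns of each list; the TRβ pair is closest at SPATA2L (14.3 and 14.4) and farthest apart at PPP5C (4.62 and 27.6).

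Among all members the summed TRβ value ran from 8.10 to 42.7 with a median of 10.7, against a median of 10.8 for the 1402 T3-only TRβ regions with PBRM1 in both lists and 9.27 for the 2554 with PBRM1 in neither. The median width was 776 bp, against 802 and 617 bp. Within the members the values of the 2 libraries did not rank the regions alike (Spearman rho -0.05 across 2642 regions, which share the same 2 libraries and had already passed the authors' test of rank agreement). The order of regions by summed value is therefore loose. These values come from lists that the choice of regions used, and no test was made on them.

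PBRM1 at the members lay mostly in the upper part of the T3 list without being held to its top (quartiles of rank 8.73% and 46.0%). The strongest PBRM1 T3 region at each member had a median value of 16.7 and a median rank in the first 23.3% of that list, compared with 13.6% for the regions with PBRM1 in both lists. For 1345 members (50.9%) the PBRM1 T3 region ranked within the first 9115 of the 38132 in that list, where 9115 is the length of the vehicle list. The 2642 members met 2676 distinct PBRM1 T3 regions, 185 members met more than 1, and 1225 members (46.4%) lay wholly inside one. Of these PBRM1 T3 regions, 2567 overlapped no PBRM1 vehicle region. The others overlapped one outside the member, which the rule allows. The strongest PBRM1 regions were at PLEC, which encodes the cytolinker plectin (87.5, made of 22.8 and 64.7, and overlapping the TRβ region of 2532 bp by only 30 bp), MEGF6 (82.6), SLC9A3, a sodium-proton exchanger gene (63.0), PPP1R18 (61.5) and AHNAK2 (60.2). The TRβ regions there had summed values of 10.6 (MEGF6), 9.89 (SLC9A3), 10.5 (PPP1R18), 15.7 (AHNAK2) and 26.0 (PLEC).

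The gap from a member to the nearest PBRM1 vehicle region was 31167 bp at the median, but 114 members (4.31%) had one within 500 bp and 757 (28.7%) within 10 kb. Likewise 55 members (2.08%) had a TRβ vehicle region within 1 kb, among them those at SNAPC2 (455 bp), TNFRSF12A (193 bp), MAZ (766 bp) and PLEC (435 bp). Just inside the rule stood regions at ADPRHL1 and ING2, each 4 bp from a PBRM1 vehicle region, and at EXOC3L4, 5 bp away. By their PBRM1 T3 overlap the least secure were regions at S1PR5 (1 bp), LOC400499 (4 bp) and C1QTNF8 (5 bp). Just outside stood T3-only TRβ regions at TMEM53, ZP3 and TNFAIP8L1, which overlapped a PBRM1 vehicle region by 5, 12 and 17 bp. Regions on either side of the rule can therefore differ by a few bases.

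**Figure D2:**
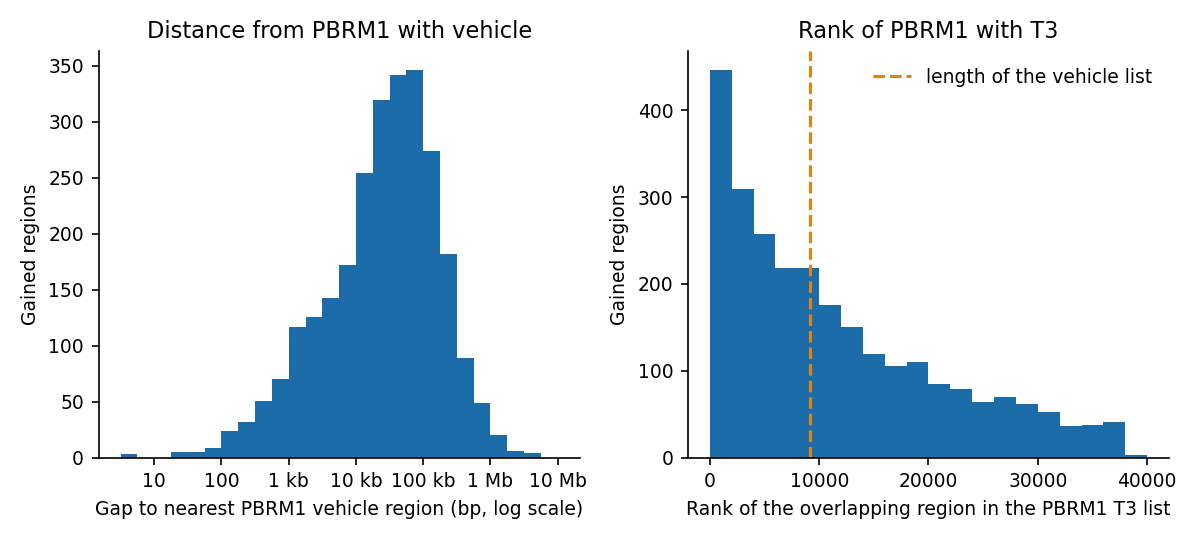
Left, number of gained regions by gap to the nearest PBRM1 vehicle region (bp, log scale); right, number by the rank of the strongest overlapping region in the PBRM1 T3 list, with the dashed line at the length of the vehicle list, 9115. The median gap is 31167 bp, and 1345 of 2642 regions fall left of the line.

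BRG1 was listed both with T3 and with vehicle at most of these places when an overlap of 1 bp sufficed. BRG1 T3 regions overlapped 2362 of the 2642 members (89.4%, exact interval 88.2 to 90.6) and BRG1 vehicle regions 2430 (92.0%, 90.9 to 93.0). The same lists overlapped 68.4% and 70.6% of all TRβ T3 regions, and 66.8% and 68.9% of the T3-only ones. For the 498 TRβ T3 regions that overlapped a TRβ vehicle region the shares were 90.4% and 94.2%. High BRG1 shares are thus not particular to the members. BRG1 was in both lists at 2320 members (87.8%), in the T3 list alone at 42 (1.59%), in the vehicle list alone at 110 (4.16%) and in neither at 170 (6.43%). Over all TRβ T3 regions these shares were 66.8%, 1.66%, 3.88% and 27.7%. Thus the share of members at which BRG1 came with T3 was near that of TRβ T3 regions in general. Where overlaps had to cover 50% of both regions, for membership too, the shares were 46.3% with T3 and 48.6% with vehicle. Each condition has 1 list, so no test compares the T3 and vehicle shares.

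ARID1A, the BAF subunit, gave a like picture with more regions in 1 condition. ARID1A T3 regions overlapped 2315 members (87.6%, 86.3 to 88.9) and vehicle regions 2214 (83.8%, 82.3 to 85.2), against 66.4% and 65.1% of all TRβ T3 regions and 64.4% and 63.1% of the T3-only ones. ARID1A T3 and vehicle regions overlapped 93.4% and 92.4% of the 498 TRβ T3 regions that met a TRβ vehicle region. ARID1A was in both lists at 2063 members (78.1%), in the T3 list alone at 252 (9.54%), in the vehicle list alone at 151 (5.72%) and in neither at 176 (6.66%). Over all TRβ T3 regions the T3-alone and vehicle-alone shares were 8.13% and 6.8%, and the shares for both and neither were 58.3% and 26.7%. At 1974 members (74.7%) BRG1 and ARID1A were in all 4 lists, and at 75 (2.84%) in none of them. The share in all 4 was 55.4% over all TRβ T3 regions, and the share in none was 22.1%.

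**Figure D3:**
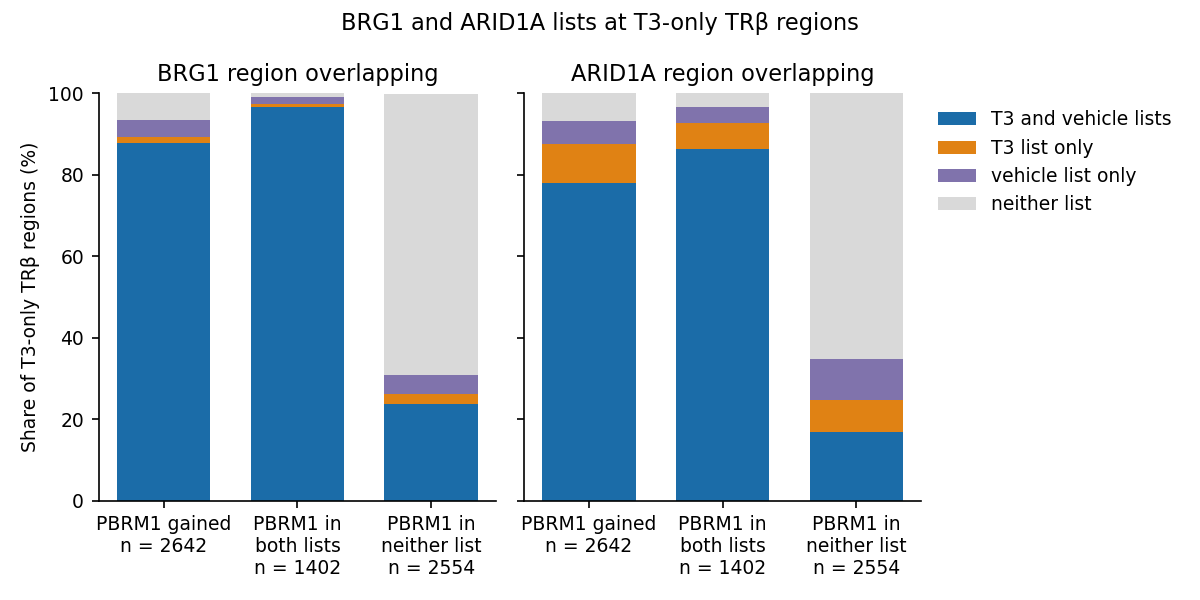
Share (%) of T3-only TRβ regions that overlap a BRG1 (left) or ARID1A (right) region in the T3 and vehicle lists, the T3 list only, the vehicle list only or neither, for gained regions and for regions with PBRM1 in both lists or in neither. BRG1 is in both lists at 87.8% of gained regions, 96.7% of those with PBRM1 in both and 23.7% of those with PBRM1 in neither.

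Set against the T3-only TRβ regions with PBRM1 in both lists and those with PBRM1 in neither, the members stood between them, much nearer to those with PBRM1 in both. With PBRM1 in both lists, BRG1 T3 regions overlapped 97.4% and BRG1 vehicle regions 98.4%, giving log2 odds ratios for members of -2.11 (SE 0.26) and -2.42 (SE 0.32), with adjusted p = 6.09e-22 and 6.5e-20 (Fisher's exact test, two-sided, over regions). ARID1A T3 regions overlapped 92.9% and vehicle regions 90.1% there (log2 odds ratios -0.87, SE 0.17, and -0.81, SE 0.15; adjusted p = 1.38e-07 and 2.92e-08, same exact test). With PBRM1 in neither list the shares were 26.2% and 28.3% for BRG1 and 24.7% and 27.0% for ARID1A. The log2 odds ratios for members against those regions were 4.57 (SE 0.11), 4.86 (SE 0.12), 4.43 (SE 0.11) and 3.80 (SE 0.10), each with an adjusted p of 2.5e-300 by Fisher's exact test, which rests on the smallest p written, 1e-300. With lists of equal length these were 3.27, 3.0, 2.90 and 2.13, and 83.5% to 87.8% of the regions with PBRM1 in neither list then met each of the 4 lists. The 90 T3-only TRβ regions with PBRM1 in the vehicle list alone were not tested; BRG1 T3 regions overlapped 78.9% of them, BRG1 vehicle regions 82.2%, ARID1A T3 regions 68.9% and ARID1A vehicle regions 58.9%. Adjustment was by Benjamini-Hochberg over 10 tests. Neighbouring regions are not independent and a region is no replicate of a culture. The p-values thus speak of these lists and carry no spread between cultures. Against PBRM1 in both lists, when each protein's lists were held to equal length, the BRG1 differences with T3 and vehicle and the ARID1A vehicle difference missed the threshold (-0.94, -0.94 and -0.72), as did the ARID1A T3 difference at an irreproducible discovery rate (IDR) of at most 0.01 (-0.22).

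Away from gene ends the gap between the classes was wider in shares. Of the 982 members farther than 1 kb from a gene end, 80.2% overlapped a BRG1 T3 region, against 94.1% of 459 regions with PBRM1 in both lists and 20.3% of 2156 with PBRM1 in neither. At gene ends the shares were 94.8%, 98.9% and 58.0%. Whether the classes differ more in one place than the other was not tested.

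PBRM1 T3-only regions were also set against each other by whether TRβ was there, a comparison added after the data were seen. Of 30188 PBRM1 T3-only regions, 2567 met a member and 26930 met no TRβ region of either list. BRG1 T3 regions overlapped 89.8% of those at members and 51.6% of those away from TRβ (log2 odds ratio 3.05, SE 0.10; adjusted p = 1.25e-300 by Fisher's exact test over 5 tests, resting on the smallest p written). ARID1A T3 regions overlapped 87.8% and 43.3% (3.23, SE 0.09). With vehicle, BRG1 regions overlapped 92.3% and 56.3%, and ARID1A regions 85.5% and 40.2%. The PBRM1 regions at members were wider, 1240 against 714 bp at the median, and wider regions overlap more easily. Within quartiles of width the log2 odds ratios were 2.49 for BRG1 and 2.66 for ARID1A with T3. A gene end lay within 1 kb of 63.2% of those at members and 27.3% of those away from TRβ (2.19, SE 0.06, and 1.56 within quartiles of width; adjusted p = 1.46e-282, same exact test).

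A small part of the members had BRG1 with T3 alone or in neither list. These were 1.59% and 6.43% of the members, near and below the 1.66% and 27.7% of all TRβ T3 regions. BRG1 came with T3 alone at 42 members, led by regions at KMT5B, a histone H4 lysine methyltransferase gene (chromosome 11, 68213103 to 68214076; 11.6 and 8.90 in the 2 TRβ libraries), RHOU, a small GTPase gene (5.76 and 11.1), LAMA5, a laminin gene (8.09 and 6.18), BRF1 (9.38 and 4.78) and OPRL1 (5.66 and 7.92). The KMT5B region was 59 bp from a gene end, whereas the LAMA5 region was 12248 bp from one. The RHOU region lay outside that gene, 1560 bp away, in a run of 6 members described further on. In the 42, 38.1% lay within 1 kb of a gene end (exact interval 23.6 to 54.4), against 67.2% (65.2 to 69.1) of the 2320 with BRG1 in both lists. BRG1 was in neither list at 170 members, of which 21.2% (15.3 to 28.1) lay at gene ends. Their PBRM1 T3 regions ranked at a median of 56.3% of the list, compared with 21% for the members with BRG1 in both. The 5 of highest TRβ value were 3 regions on chromosome 21 without a protein-coding gene within 100 kb, 1 inside UCKL1, a uridine kinase gene (8.49 and 8.29), and 1 inside WNT3A, a WNT ligand gene (8.80 and 7.33). Ribosomal RNA genes were not looked up at the chromosome 21 regions, and how uniquely reads map there is unknown from the lists.

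ARID1A was in the T3 list alone at 252 members, 9.54% against 8.13% of all TRβ T3 regions. The first by TRβ value lay beside TRAPPC12 (10.9 and 11.1), inside FBXO5, which encodes an inhibitor of the anaphase-promoting complex (8.29 and 10.9), near NADK (7.49 and 10.4) and beside LSR, a gene of tricellular junctions (11.7 and 5.96). All 4 had BRG1 in both lists, and the fifth, at UCKL1, had it in neither. ARID1A was in neither list at 176 members, 6.66% against 26.7% of all TRβ T3 regions. These were led by regions at C8orf82 (12.3 and 8.42), ATRAID (9.93 and 8.74), CLSTN3 (7.49 and 7.18), VPS53 (10.9 and 3.39) and FBXL15 (5.72 and 8.16). The VPS53 region owed its place mostly to 1 library.

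Most members lay at the edges of genes. In 1660 of 2642 members (62.8%, exact interval 61.0 to 64.7) a protein-coding or lncRNA gene began or ended within 1 kb of the midpoint, compared with 46.7% of all TRβ T3 regions. For the 498 TRβ T3 regions that overlapped a TRβ vehicle region it was 64.1%, so a high share is not particular to the members. The share was 67.3% with PBRM1 in both lists (log2 odds ratio -0.28, SE 0.10; adjusted p = 0.0052 by Fisher's exact test) and 15.6% with PBRM1 in neither (3.19, SE 0.10; adjusted p = 1.36e-279, same exact test). With lists of equal length the shares were 72.8% for members and 60.5% with PBRM1 in neither (0.80), and 42.2% of the 90 regions with PBRM1 in the vehicle list alone lay at gene ends in the full lists. The small difference from regions with PBRM1 in both lists is not secure. It did not pass within 3 kb of a gene end (-0.15) or among regions on which the libraries agreed in rank (-0.22), and it turned to 0.068 at a discovery rate of at most 0.01 and to 0.067 with lists of equal length. Of the members, 14.3% were over 10 kb from a gene end, against 44.6% with PBRM1 in neither list and 24.6% of all TRβ T3 regions. Inside a protein-coding gene lay 61.6% of them, near the 59.2% of all TRβ T3 regions. The gene table gives no strand or exons, so exon and intron are not told apart here.

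**Figure D4:**
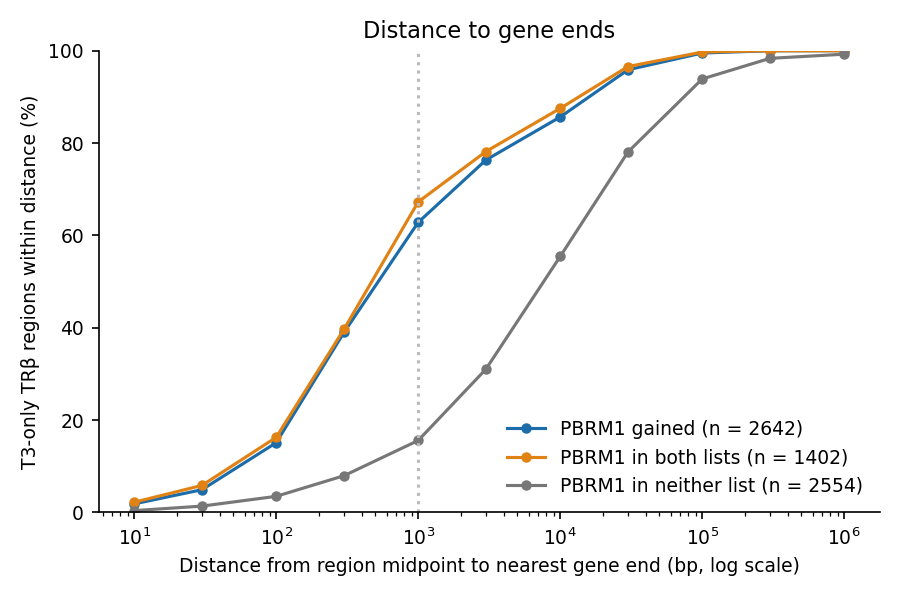
Cumulative share (%) of T3-only TRβ regions within a given distance (bp, log scale) of the nearest gene end, for gained regions and for regions with PBRM1 in both lists or in neither; the dotted line marks 1 kb. At 1 kb the shares are 62.8%, 67.3% and 15.6%.

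Gene starts were read from the RefSeq promoter table, which lists strand but is not complete. Gained regions covered the whole 250 bases before a start in 1291 windows of 1132 genes, in 928 regions. In 206 of these 928 regions (22.2%, exact interval 19.6 to 25) windows of both strands were covered, so that genes on opposite strands began in 1 region. It was 22.3% for regions with PBRM1 in both lists and 12% (6.87 to 19) with PBRM1 in neither. The covered windows were rich in G and C, with a median of 69.6%, against 58.0% over all 34789 windows of the table and 69.2% for windows under regions with PBRM1 in both lists.

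GC boxes were common in these windows and the receptor half-site was not. GGGCGG on either strand was in 83.2% of windows under members (1074 of 1291) and in 42.6% of all windows. The E-box CACGTG was in 11% and 6.33%. The half-site AGGTCA was in 6.20% (80 windows) and 12%, the AP-1 letters TGANTCA in 2.94% and 6.55%, and the RUNX letters TGTGGT in 6.35% and 11%. Under regions with PBRM1 in both lists the shares were, in the same order, 81.3%, 10.1%, 6.16%, 1.97% and 4.56%. With PBRM1 in neither list they were 66.2%, 10.2%, 8.28%, 1.91% and 8.92%, over 157 windows. These shares are thus not particular to the members. The half-site repeated on the same strand after 4 bases, as AGGTCA or with 1 letter left free (AGGNCA, a form added after the data were seen), was in 0 of the 1291 windows and in 5 and 53 of all 34789. The exact interval for 0 of 1291 reached 0.285%, above the 0.0144% and 0.152% of all windows. A lack of the repeat at members can therefore not be read from it. Windows under regions with PBRM1 in both lists or in neither also had 0. The windows under members were richer in G and C than the table as a whole, and the part of this in the shares was not tested. The windows reach only from the start to 250 bases before it. A match is a description of letters and not a binding site.

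Chromosomes 1, 17 and 19 held the most members, with 283, 219 and 214. Per 1000 protein-coding genes the number was highest on chromosomes 20 (218), 22 (211) and 21 (209), and lowest on X (36.6). The members' share of the T3-only TRβ regions of a chromosome ran from 29.0% on chromosome 13 (exact interval 20.6 to 38.5) to 45.9% on chromosome 22 (39.0 to 52.9). It was 34.3% on chromosome 20, 37.9% on chromosome 21 and 39.7% on X, against 39.5% over all T3-only TRβ regions. The number per gene thus also depends on how many TRβ regions a chromosome had. For 785 members (29.7%) another lay within 25 kb. The run with the most members had 7 over 60.0 kb of chromosome 1 (962371 to 1022366), along KLHL17, PERM1, HES4, a NOTCH target gene, and AGRN, which encodes the basement membrane protein agrin. Others had 6 members each, over 24.2 kb beside RHOU, 31.2 kb from FIBP to FOSL1, and 57.3 kb from PLEC to GRINA. Runs are named by the nearest protein-coding genes, and the members beside RHOU lay outside that gene. Genes of other kinds, such as those of ribosomal RNA, were not looked up. How uniquely reads map in a run is unknown from the lists.

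Of 19974 protein-coding genes, 4167 (20.9%) had a gained region within 25 kb of an annotated end. The lists below were chosen with earlier results of these data in view, so their counts are given beside that share and without a test. All but 1 of the 18 lists had a higher share, the exception being thyroid lineage and hormone synthesis genes (3 of 18, 16.7%). The highest shares were in the TR and RXR genes (3 of 5, 60.0%), the SWI/SNF subunit genes (16 of 28, 57.1%) and the epithelial junction and keratin genes (11 of 20, 55.0%). Within 5 kb, where the share over all genes was 12.1%, the SWI/SNF list stood at 35.7% and the epithelial list at 25%, while the thyroid list (16.7%) then lay above that share and the NOTCH (9.52%) and KLF and SP lists (11.5%) below it. Within 100 kb the T3-responsive list (35%) lay below the 37.2% of all genes. T3-only TRβ regions that are not members lay within 25 kb of 4583 protein-coding genes. Those regions met 0 TR and RXR, 9 SWI/SNF and 10 epithelial genes, fewer than the members did. They met 8 T3-responsive, 16 receptor kinase and 10 WNT genes, more than the members did. The other lists went either way or were equal. Neighbouring genes can share a region, as KRT8 and KRT18 or CDKN2A and CDKN2B did. A listed gene also need not be the nearest to its region. The region counted for E2F2 lay 20968 bp from that gene and inside ASAP3. Those counted for CLDN7, IRF3, HES5, AKT1 and SMARCD3 lay 18248, 18239, 16405, 16380 and 11516 bp outside the gene.

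The receptor genes with a gained region were THRA, which encodes the other thyroid hormone receptor (chromosome 17, 40099085 to 40099683; TRβ values 7.87 and 4.64 in the 2 libraries), RXRB (chromosome 6, 33204398 to 33205452; 7.31 and 10.6) and RXRA (chromosome 9, 134325221 to 134326405; 6.48 and 4.11). The RXRA region lay 642 bp from an end of RXRA. The THRA region lay 5517 bp and the RXRB region 4072 bp from an end of their own gene. Ends of neighbouring genes may lie nearer. All 3 had BRG1 and ARID1A in all 4 lists. THRB and RXRG had none within 25 kb.

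The remodeler's own genes were among those near the members. SMARCA4, which encodes BRG1, had a region 17 bp from a gene end (chromosome 19, 10960531 to 10961495; 6.13 and 6.74), and PBRM1 one at 4 bp (chromosome 3, 52685611 to 52686208; 7.03 and 5.96). The ARID1A region lay 3285 bp from its gene end (chromosome 1, 26692349 to 26693112; 11.4 and 8.26). These are positions at the genes of the mapped proteins and say nothing of protein levels. The first by TRβ value was near SMARCD3 (15.4 and 6.74), which encodes a BAF60 subunit, followed after ARID1A by BCL7C (10.3 and 8.21). Further subunit genes with a region were SMARCC1, SMARCC2, SMARCD2, ACTL6A, ACTL6B, BCL7B, BICRA, BICRAL, BRD9, DPF3 and SS18L1. BRG1 was in both lists at all 16, and ARID1A at all but the BICRA region.

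**Figure D5:**
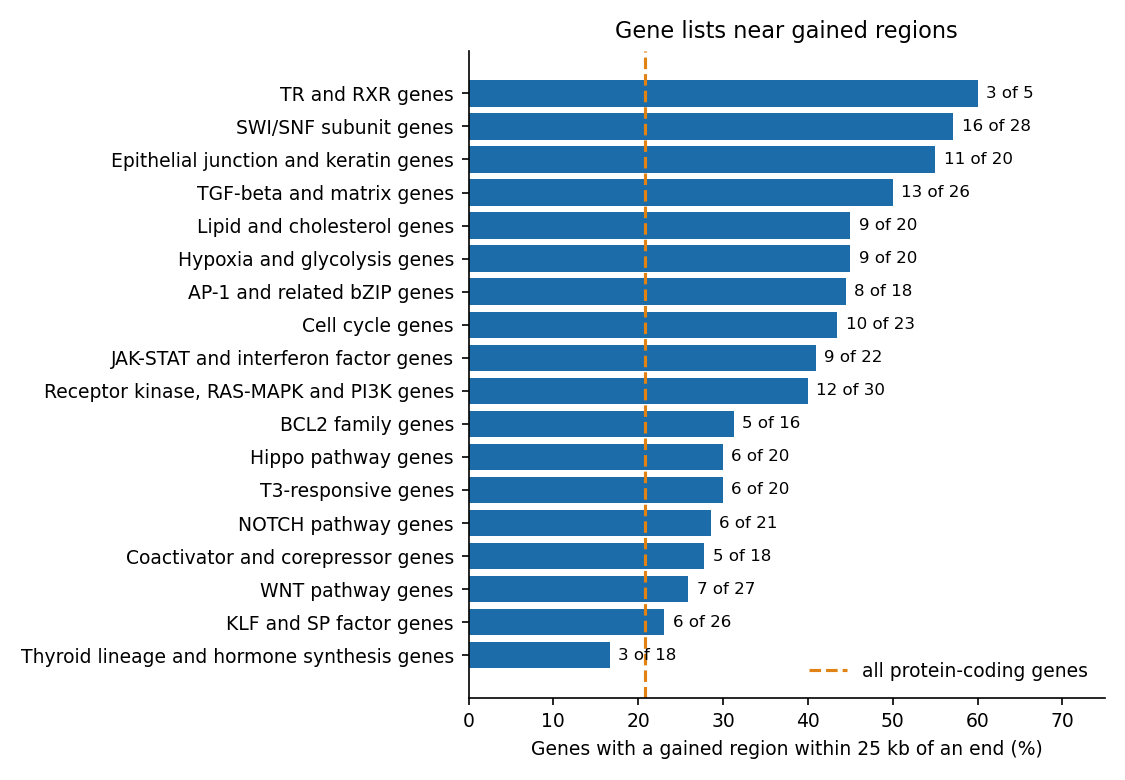
Share (%) of the genes of each list with a gained region within 25 kb of a gene end, with the count of genes beside each bar; the dashed line is the share over all protein-coding genes, 20.9%. SWI/SNF subunit genes stand at 57.1% and thyroid lineage and hormone synthesis genes at 16.7%.

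Genes known to respond to T3 had a gained region in 6 of 20 cases (30%). Besides DBP they were BCL3, a regulator of NF-kappa-B (7.82 and 6.94 in the 2 TRβ libraries), ADSS1 (9.85 and 5.84), HR, which encodes the corepressor hairless (5.41 and 4.96), the glucose transporter gene SLC2A1 (5.17 and 4.45) and CPT1A, a gene of fatty acid import into mitochondria (5.60 and 3.59). The ADSS1 region was the same as that near AKT1. The HR region had BRG1 with T3 alone and ARID1A in neither list, while the regions at DBP, BCL3, ADSS1 and SLC2A1 had both proteins in all 4 lists. KLF9, THRSP and DIO1 had no gained region within 25 kb. T3-only TRβ regions that are not members lay within 25 kb of 8 of the 20 genes. Of the coactivator and corepressor genes 5 of 18 (27.8%) had one, led by PRMT1, an arginine methyltransferase gene (8.37 and 12.1), MED1 (6.16 and 7.60) and HDAC3 (7.94 and 4.56).

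Metabolic genes followed with 9 of 20 (45.0%) in each of 2 lists. In the hypoxia and glycolysis list the leading regions were at ENO1, an enolase gene (10.5 and 13.5), BNIP3, a mitophagy gene (10.2 and 10.6), and EPAS1, the HIF-2-alpha gene (9.06 and 5.70), each within 1 kb of a gene end. In the lipid list they were at NR1H2, a liver X receptor gene (12.5 and 10.2), INSIG1, which restrains sterol synthesis (13.4 and 8.82), and FASN, the fatty acid synthase gene (9.20 and 7.31). The FASN region had ARID1A with T3 alone. ACLY, the citrate lyase gene, had a region with BRG1 with T3 alone and ARID1A in neither (7.79 and 5.36).

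Growth and signalling lists lay between 25.9% and 43.5%. Of 23 cell cycle genes, 10 (43.5%) had a gained region, first CCNE2, a cyclin E gene (6.25 and 9.78), E2F2 (7.73 and 7.75) and CDK4 (6.95 and 6.46). The receptor kinase, RAS-MAPK and PI3K list had 12 of 30 (40.0%), first AKT1, a kinase gene (9.85 and 5.84). The JAK-STAT and interferon list had 9 of 22 (40.9%), with JAK3 (14.2 and 8.16), IRF3 (7.81 and 12.8) and STAT6 (10.7 and 8.34). WNT genes had 7 of 27 (25.9%), NOTCH genes 6 of 21 (28.6%), Hippo genes 6 of 20 (30%) and BCL2 family genes 5 of 16 (31.3%). Their first members were ZNRF3 (8.60 and 7.34), HES5 (8.64 and 8.99), TEAD3 (6.19 and 6.99) and BCL2L2 (12.1 and 6.97), and none of these 4 regions lacked BRG1 or ARID1A in any list. The lowest shares here are close to the 20.9% of all genes.

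Factor and structure genes completed the lists. AP-1 and related genes had 8 of 18 (44.4%), first JUND (7.33 and 11.5), FOSL2 (10.5 and 7.09) and ATF3 (5.59 and 10.9), all with BRG1 and ARID1A in all 4 lists. KLF and SP genes had 6 of 26 (23.1%), first KLF13 and KLF10, an early TGF-beta response gene (12.5 and 12.2). The TGF-beta and matrix list had 13 of 26 (50%), first VIM, the vimentin gene (8.0 and 8.0), SKIL (7.58 and 8.35) and LTBP3 (8.53 and 6.11). The epithelial list was led by PLEC (12.8 and 13.2), CLDN7, a claudin gene (5.39 and 11), and KRT7, a keratin gene (8.34 and 5.49). The 3 thyroid genes were HHEX (9.26 and 4.93), PAX8 (8.21 and 4.96) and DUOX1, an oxidase gene of hormone synthesis (5.56 and 3.41). In each of these 3 regions the first library column was the higher. The PAX8 region lay 16805 bp from an end of PAX8, and those at HHEX and DUOX1 were 3708 and 1468 bp from an end of their own gene. Ends of neighbouring genes may lie nearer.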

How the data were processed

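The regions and gene lists were chosen with earlier results of these data known. Per the submitters' processing notes the tools were CASAVA 1.7, Trim Galore, Bowtie2 and MACS2 on hg38; parameters, and any use of the IgG library, which was not analysed here, were not given in the sources used here. The 8 deposited lists follow the layout of the IDR method, which keeps peaks that 2 replicates rank alike. The deposited signal value is the sum of the values of 2 libraries, the deposited score, by its values, is scaled from the IDR, and the deposited −log10 of the IDR gave rates up to 0.05. Which column belongs to which replicate is not stated, and 16 summit columns were not used.

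Overlap was at least 1 bp. Shares have exact (Clopper-Pearson) 95% intervals that cover counting error only. Differences between classes were tested with Fisher's exact test (two-sided) and Benjamini-Hochberg adjustment, adding 0.5 to each cell for log2 odds ratios. The test was also run on simulated independent draws, which checks the calculation and not these differences, since neighbouring regions are not independent. Ends of genes were read from RefSeq genes (GRCh38.p14), a table without strand; the planned use of gene starts was kept as an alternative because the promoter table is incomplete. The 18 lists held 378 entries, all matched, 1 by an older symbol. Genes named were the 15 members of highest TRβ value, the 5 of highest PBRM1 value, the first 5 of 4 BRG1 and ARID1A patterns, the first 3 of each list, and all of the receptor, SWI/SNF and T3-responsive lists; others (runs of members, list members beyond these and genes without a region) were chosen after their values were seen. Some genes that this rule or the marker list names are not reported here. Promoters shown are the first 4 genes by TRβ value. Alternatives were an IDR of 0.01, equal list lengths, reciprocal overlap of 50%, a tolerance of 500 bp, 1 library's interval, a rank difference of at most 25%, strata of width or gene end, and windows of 3, 5 and 100 kb; gene starts and leaving out regions under 300 bp were added after seeing the data. Work was done in Python 3.11.15 with scipy 1.17.1 for tests, statsmodels 0.14.6 for odds ratios within strata, pandas 2.3.3 and numpy 2.4.6; figures used matplotlib 3.10.9.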

Additional observations from a re-analysis of the deposited data

Results flagged for a closer look

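Of the 97 TRβ T3 regions outside chromosomes 1 to 22 and X (on Y and on unplaced or unlocalised contigs), 24 met the same overlap rule. On chromosomes 1 to 22 and X the rule took 2642 of 7186 (36.8%). The 24 regions were set apart because they lie in data that the comparisons did not use. The IgG library was not analysed here, so no control value stands beside this count.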

How the results depend on the processing

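Of 102 alternative values of the 10 tests between classes of regions, 94 kept their direction and their side of the threshold. The number of gained regions was 378 with lists of equal length, 1424 with reciprocal overlap of 50% and 1144 where the libraries' TRβ ranks differed by at most 25% of the list, against 2642. With lists of equal length the log2 odds ratios against regions with PBRM1 in both lists were -0.94 for BRG1 with T3, -0.94 for BRG1 with vehicle and -0.72 for ARID1A with vehicle, without passing, and the gene-end difference was 0.067. At an IDR of at most 0.01 the ARID1A T3 difference was -0.22 and the gene-end difference 0.068. The gene-end difference was -0.22 under the rank limit and -0.15 within 3 kb. The cause was not tested. Against regions with PBRM1 in neither list, all 5 differences passed in every alternative run, but with lists of equal length the log2 odds ratios shrank to 0.80 for gene ends and 2.13 for ARID1A with vehicle, and with reciprocal overlap to 2.65 for BRG1 with T3. Genes with a gained region numbered 2409 within 5 kb and 7434 within 100 kb, against 4167. No paired analysis was possible because each list merges both libraries of a group, which also kept single replicates from being left out. Depth is unknown from the lists.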
